A study of Mus musculus with 9 samples.

Results

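The regulators of G protein signalling (RGS) were followed in CD8+ T cells that had entered a melanoma, with and without the receptor for interleukin 27. The 8 members, Rgs1, Rgs2, Rgs3, Rgs10, Rgs14, Rgs16, Rgs18 and Rgs19, are 8 of the 20 symbols made of Rgs and a number among the 23366 symbols of the deposited table. They were picked from it by symbol with their expression and their differences between the genotypes in view. Their levels and differences are therefore given as a description, and no p-value is given for them. The choice followed no fixed level: Rgs18, with a mean of 0.703 FPKM over all libraries, was taken, whereas Rgs8 and Rgs11, with means of 1.41 and 2.05 FPKM, and Rgs12, with 0.668 FPKM, were not. FPKM scales fragments by transcript length and by library size, so levels can be compared between genes.

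All libraries came from bulk CD8+ T cells of B16F10 tumours in C57BL/6 mice, with about 2000 cells lysed on average. B16F10 is a transplantable mouse melanoma line. There were 5 wild type (WT) libraries and 4 from knockout mice (IL27ra KO) of Il27ra, which encodes the chain specific to the interleukin 27 receptor. Neither group had another allele or treatment in the labels, which do not say which exons of Il27ra were removed, whether other cells of the host lacked it too, or whether each library was a separate animal. P-values thus rest on the spread among the libraries alone, part of which may be technical. The labels give no age or sex.

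RGS proteins end the signal of receptors that act through heterotrimeric G proteins. When a chemokine or lipid binds such a receptor, the G protein alpha subunit takes up GTP and parts from the beta and gamma subunits, and the shared RGS domain speeds up the hydrolysis of that GTP. In lymphocytes the family is best known for setting how strongly and how long cells answer chemoattractants. Rgs1, Rgs2, Rgs3, Rgs16 and Rgs18 belong to the small R4 subfamily, Rgs10 and Rgs14 to the R12 subfamily and Rgs19 to the RZ subfamily.

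The upstream sequences of 3 genes are shown because their groups did not overlap: Rgs16 and its chromosomal neighbour Rgs8 were lower in IL27ra KO libraries, and Rgs10 was higher in each of them than in any WT library, by a narrow margin. Each is the 250 bases before a start site in RefSeq, on build GRCm38.p6 and not the mm9 build of the expression values, read 5′ to 3′ on the strand of the gene. The windows are chr1:153740103-153740352 on the plus strand for Rgs16, chr1:153652787-153653036 on the plus strand for the first of 3 Rgs8 starts, and chr7:128418173-128418422 on the minus strand for Rgs10. Capitals mark a match to one of 3 motifs searched, and the windows of Rgs16 and Rgs10 hold none. The windows of the other Rgs8 starts, not shown, hold none either.
Rgs16: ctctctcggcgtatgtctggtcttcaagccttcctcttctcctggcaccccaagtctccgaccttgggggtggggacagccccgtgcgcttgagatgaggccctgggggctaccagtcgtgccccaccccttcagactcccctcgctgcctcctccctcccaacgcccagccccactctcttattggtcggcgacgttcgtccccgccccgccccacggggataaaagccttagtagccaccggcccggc
Rgs8: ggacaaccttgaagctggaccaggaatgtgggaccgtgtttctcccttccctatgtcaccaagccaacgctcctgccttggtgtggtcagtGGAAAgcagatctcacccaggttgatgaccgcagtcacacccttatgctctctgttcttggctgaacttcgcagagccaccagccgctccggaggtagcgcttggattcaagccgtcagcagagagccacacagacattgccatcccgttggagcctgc
Rgs10: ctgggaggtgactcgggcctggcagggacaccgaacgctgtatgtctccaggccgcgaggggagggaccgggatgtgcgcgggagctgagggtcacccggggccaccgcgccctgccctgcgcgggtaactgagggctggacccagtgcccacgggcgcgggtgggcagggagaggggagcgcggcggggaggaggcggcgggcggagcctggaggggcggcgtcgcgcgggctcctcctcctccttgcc

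The motifs searched on both strands were TTCNNNGAA, bound by STAT factors, TGANTCA, bound by AP-1, and GGAAA, the core bound by NFAT. The NFAT core can overlap the end of the STAT motif, and the capitals in the Rgs8 window are a GGAAA. Entries were matched by symbol for 5 of the 8 members, with 8 windows in all. None was matched for Rgs18, whose groups did not overlap either, so its sequence is not shown. The STAT motif was found in 0 of these 8 windows and the AP-1 motif in 0, against 7.02% and 6.75% of 32851 upstream windows of the same length in RefSeq. The NFAT core was found in 3 of the 8 (windows of Rgs3 and Rgs19), against 55.6% of all. These counts say only which letters stand in the windows.

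Depth and makeup of the libraries bear on every level. The spacing of low values in 2879 genes with a single transcript implied 1740000 to 4030000 fragments per WT library and 2500000 to 3850000 per IL27ra KO library. These sizes are on the TMM scale and can differ from the number of fragments sequenced. Rn45s, the ribosomal RNA precursor, took 23.9% to 53.8% of the summed FPKM. The defining CD8 T cell genes were present in all libraries, and Cd4 did not exceed 0.45 FPKM. Other cells were present too: 18 of 19 tested macrophage and monocyte genes were higher in IL27ra KO (limma, adjusted p under 0.05), against 3.13% of all genes tested. The list summed to 308.5 to 639 FPKM in WT libraries and 1085 to 2080 FPKM in IL27ra KO. The summed level of 15 CD8 T cell genes was 1142 to 1791 FPKM in WT libraries and 527.5, 749, 641 and 1392 FPKM in IL27ra KO replicates 1 to 4. Il27ra itself ranged from 5.14 to 25.7 FPKM over the WT libraries and from 4.09 to 7.80 FPKM over the others. The library labelled WT replicate 2, with 5.14 FPKM, lay inside the IL27ra KO range.

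Rgs16 had the largest difference among the 8 members on the log2(FPKM + 1) scale. It encodes a small R4 regulator that T cells induce on activation. Its levels were 61.2, 103, 62.6, 31.4 and 146.8 FPKM in WT replicates 1 to 5 and 7.76, 6.64, 10.8 and 5.92 FPKM in IL27ra KO replicates 1 to 4. The groups did not overlap: the lowest WT library held 2.91 times the level of the highest IL27ra KO library. The means were 81.0 ± 44.7 FPKM (SD, n = 5) and 7.78 ± 2.14 FPKM (SD, n = 4), a ratio of 10.4, and the difference was -3.07 on the log2(FPKM + 1) scale (SE 0.45). In bulk RNA, fewer cells of a type and less RNA per cell cannot be told apart. IL27ra KO replicate 4, whose summed CD8 T cell genes lay within the WT range, had the lowest Rgs16 of all libraries. As a percentage of the summed CD8 T cell genes, Rgs16 came to 2.75% to 10.4% in WT and 0.425% to 1.68% in IL27ra KO. The part of cell makeup in the Rgs16 difference was not tested. With WT replicate 2 left out, the Rgs16 difference was -2.94.

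**Figure D1:**
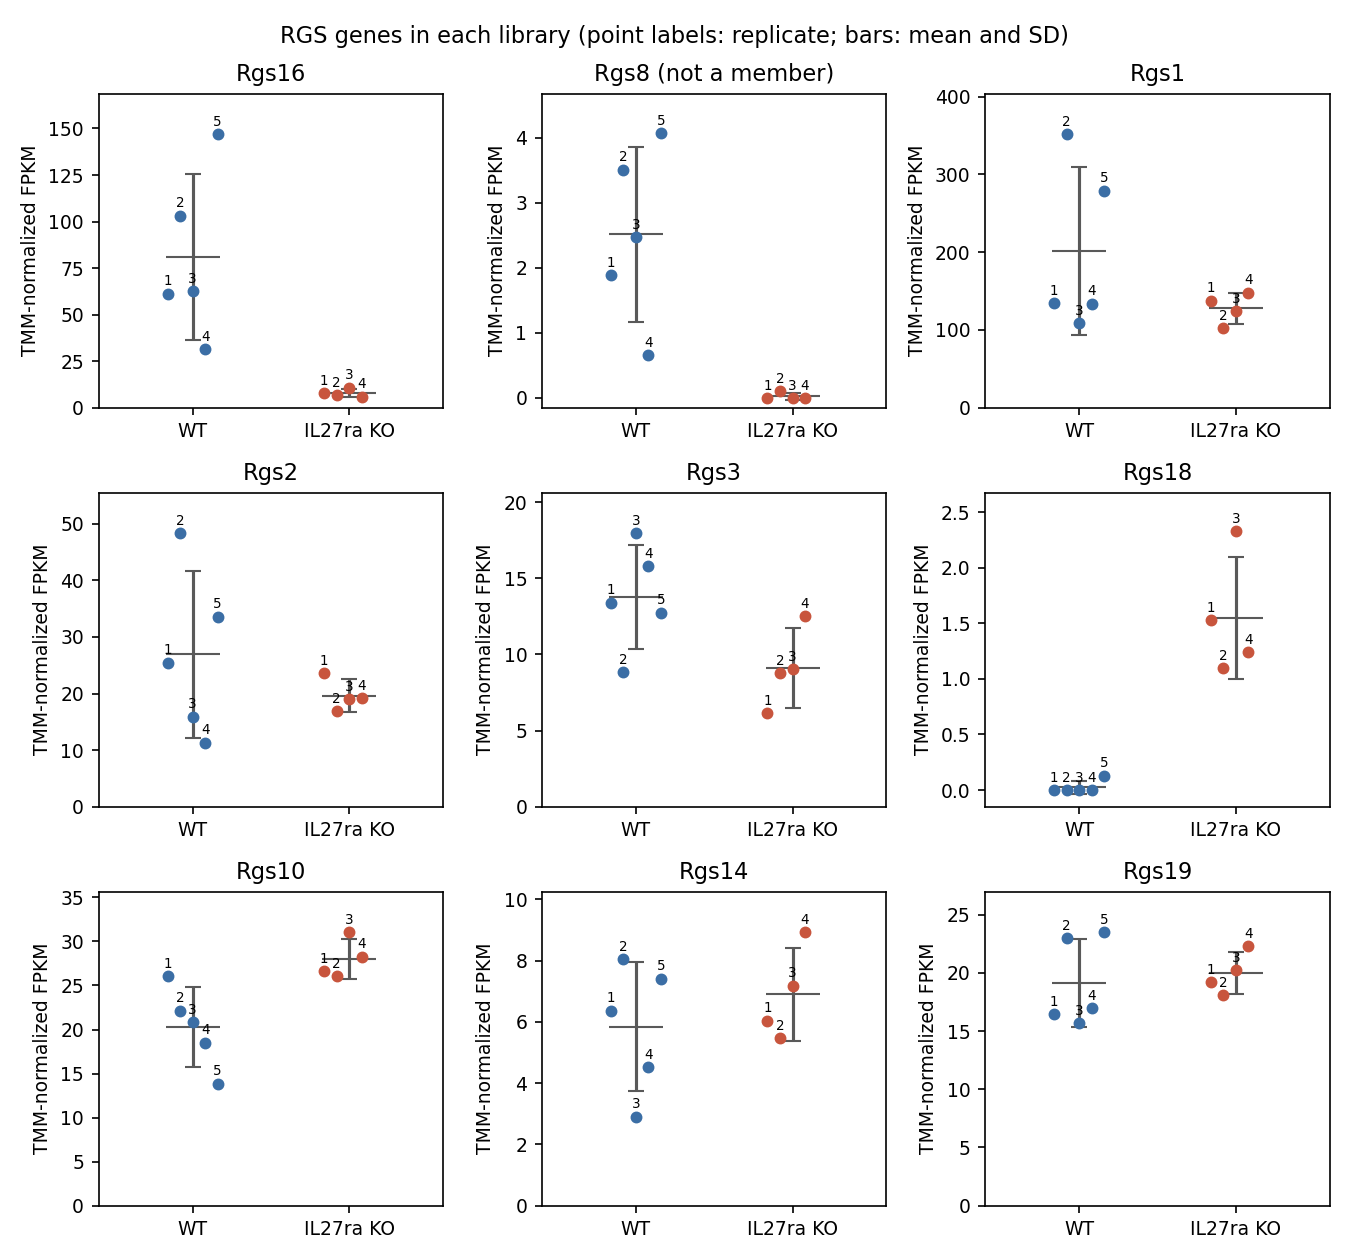
TMM-normalized FPKM of the 8 members and of Rgs8 in each library, with 1 panel per gene and a linear axis. Points are libraries numbered by replicate, and bars give the mean and SD of 5 WT and 4 IL27ra KO libraries. Rgs16 runs from 31.4 to 146.8 in WT and from 5.92 to 10.8 in IL27ra KO, and Rgs18 runs the other way at a far lower level.

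Rgs8, an R4 regulator best known from brain, was not among the members and moved in the same direction as Rgs16. Its levels were 1.89, 3.51, 2.47, 0.66 and 4.07 FPKM in WT replicates 1 to 5. In IL27ra KO it was listed at 0 in replicates 1, 3 and 4 and at 0.1 FPKM in replicate 2. The groups did not overlap, and the difference was -1.68 on the log2(FPKM + 1) scale (SE 0.30; limma, adjusted p = 0.0055 over 10374 genes). Rgs8 reached the mean of 1 FPKM needed for the fit through the WT libraries alone, so that it had to differ once tested, and with no filter it passed as well (limma, adjusted p = 0.0167). The call held in each of the 19 alternative fits that tested Rgs8 (limma, highest adjusted p = 0.0253). All of these except the fit with no filter took Rgs8 in by the same level filter, so the count adds no support. The size depended on the pseudocount, with -4.25 at 0.1 and -0.56 at 5. Rgs8 was 2.1% to 3.95% of Rgs16 in the WT libraries and 1.51% in IL27ra KO replicate 2.

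Rgs8 and Rgs16 are next to each other among the protein-coding genes of chromosome 1 in RefSeq. Npl, on the other side of Rgs8, averaged 0.728 FPKM in WT libraries and 1.19 FPKM in the others and was too low to be tested. The transcripts of Rgs8 and Rgs16 in GENCODE M21 shared 0 stretches of 25 bases, as did each pair of the 8 members.

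Rgs1, a negative regulator of chemokine receptor signals in T and B cells, was the most abundant member in both groups and ranked 170 among all symbols by mean FPKM. Its levels were 134, 351, 109, 134 and 279 FPKM in WT replicates 1 to 5. In IL27ra KO replicates 1 to 4 they were 137, 102, 124 and 148 FPKM. The groups overlapped, and their medians were close, at 134 FPKM for WT and 131 FPKM for IL27ra KO. WT replicates 2 and 5 stood above all other libraries, and the means of 201 ± 108 FPKM (SD, n = 5) and 127.9 ± 19.8 FPKM (SD, n = 4) differ through these 2 libraries. The difference was -0.51 log2 units (SE 0.39), and 0.02 with WT replicates 2 and 5 left out. Scaled to the CD8 T cell genes it was 0.10, so its sign depended on the scaling.

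Rgs2, which acts chiefly on the Gq class of alpha subunits, repeated this pattern at a lower level. It had 25.4, 48.3, 15.9, 11.3 and 33.6 FPKM in WT replicates 1 to 5 and 23.7, 16.8, 18.9 and 19.1 FPKM in IL27ra KO replicates 1 to 4. All IL27ra KO values lay within the WT range, and WT replicates 2 and 5 were again the highest. The difference was -0.28 log2 units (SE 0.41). It became 0.21 with WT replicates 2 and 5 left out, and 0.32 scaled to the CD8 T cell genes. These 2 libraries also had the lowest summed melanoma genes, 449 and 569 FPKM, against 717 to 1568 FPKM in the other 7, and the highest summed CD8 T cell genes of all 9, 1791 and 1407 FPKM. Within the WT group they were highest in summed macrophage genes, 639 and 460 FPKM, and dendritic cell genes, 496 and 249 FPKM. The part of these markers in the levels of Rgs1 and Rgs2 was not tested.

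Rgs3, an R4 member whose gene makes long and short proteins, did not follow Rgs1 and Rgs2 across the WT libraries. Its levels were 13.4, 8.85, 17.9, 15.8 and 12.8 FPKM in WT replicates 1 to 5, so that replicate 2 was here the lowest. IL27ra KO replicates 1 to 4 had 6.14, 8.75, 9.02 and 12.5 FPKM and overlapped with WT. The difference was -0.55 log2 units (SE 0.25), and 0.01 scaled to the CD8 T cell genes.

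Rgs18, known from platelets and myeloid cells, was the scarcest member and ran opposite to Rgs16. It was listed at 0 in WT replicates 1 to 4 and at 0.13 FPKM in replicate 5. IL27ra KO replicates 1 to 4 had 1.53, 1.10, 2.33 and 1.24 FPKM, so the groups did not overlap. From the spacing of low values, 1 fragment of its single 2031-base transcript was worth 0.122 to 0.283 FPKM. The WT value then stands for about 1.06 fragments and the IL27ra KO values for 7.55 or more, estimates that carry a large counting error. The difference was 1.29 log2 units (SE 0.14) and depended on the pseudocount, with 3.75 at a pseudocount of 0.1 and 0.38 at 5. Rgs18 lay below the mean of 1 FPKM needed for the fit.

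Macrophage genes and the platelet gene Pf4 were also higher in IL27ra KO. The macrophage gene Csf1r had 0.22 to 4.01 FPKM across WT libraries and 11.0 to 49.0 FPKM across IL27ra KO libraries, and Mrc1 had 0.05 to 1.44 and 8.93 to 34.4 FPKM. Of 10 platelet and megakaryocyte genes, only Pf4, a chemokine that macrophages can also make, reached a mean of 1 FPKM, and it was higher in IL27ra KO (limma, adjusted p = 0.0150). Its levels were 0.49 to 6.74 FPKM across WT libraries and 5.72, 53.3, 74.2 and 39.2 FPKM in IL27ra KO replicates 1 to 4. Ppbp, another platelet chemokine, had 0 to 0.82 FPKM across WT libraries and 0.24, 1.08, 2.19 and 1.07 FPKM in IL27ra KO replicates 1 to 4. Gp9 was listed at 0 in 6 of 9 libraries and reached 1.42 FPKM in WT replicate 1 and 1.6 FPKM in IL27ra KO replicate 1, and the other 7 did not exceed 0.85 FPKM in any library. The summed list came to 3.23 to 7.82 FPKM across WT libraries and 8.73 to 76.7 FPKM across IL27ra KO libraries. In each IL27ra KO library most of that sum came from Pf4. The part of macrophages or platelets in Rgs18 was not tested.

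Rgs10, a short R12 regulator present in T cells and macrophages, was higher in each IL27ra KO library than in any WT library, by a narrow margin. WT replicates 1 to 5 had 26.1, 22.1, 20.9, 18.5 and 13.9 FPKM, and IL27ra KO replicates 1 to 4 had 26.6, 26.1, 31.0 and 28.3 FPKM. Only 0.02 FPKM separated the highest WT library from the lowest IL27ra KO library. The means were 20.3 ± 4.52 FPKM (SD, n = 5) and 28.0 ± 2.22 FPKM (SD, n = 4), and the difference was 0.47 log2 units (SE 0.17). It was 1.06 scaled to the CD8 T cell genes. The macrophage genes given above moved in the same direction, and their part was not tested.

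Rgs14, an R12 regulator that also binds Ras-like proteins and inactive alpha subunits, overlapped between the groups. It had 6.37, 8.04, 2.91, 4.52 and 7.41 FPKM in WT replicates 1 to 5 and 6.04, 5.47, 7.18 and 8.92 FPKM in IL27ra KO replicates 1 to 4. Rgs19, the RZ regulator also called GAIP, overlapped too. WT replicates 1 to 5 had 16.4, 23.0, 15.7, 17.0 and 23.5 FPKM, and all 4 IL27ra KO values, 19.2, 18.1, 20.3 and 22.3 FPKM, lay among them. The differences were 0.25 (SE 0.28) for Rgs14 and 0.08 (SE 0.15) for Rgs19 on the log2(FPKM + 1) scale, and 0.78 and 0.66 scaled to the CD8 T cell genes.

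Of the 7 members with a mean of at least 1 FPKM, 1 was past the threshold of an adjusted p under 0.05 in the fit over all genes (limma), Rgs16, as lower. The other 6 were not past it. The background is 4.24% of 10374 genes past the threshold, 1.11% as lower and 3.13% as higher. Since the members were picked with this contrast known, nothing is read from the count or from the call on Rgs16. Rgs16 and Rgs10, or 2 of the 7, had groups that did not overlap, against 6.73% of all genes tested, and the same holds for Rgs18 below the level filter. The median difference of the 7 was -0.28 log2 units, beside 0.02 for all genes tested. Scaling to the CD8 T cell genes moved the median of all genes to 0.535, and there the calls over all genes split into 713 higher and 50 lower against 325 and 115 as deposited.

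**Figure D2:**
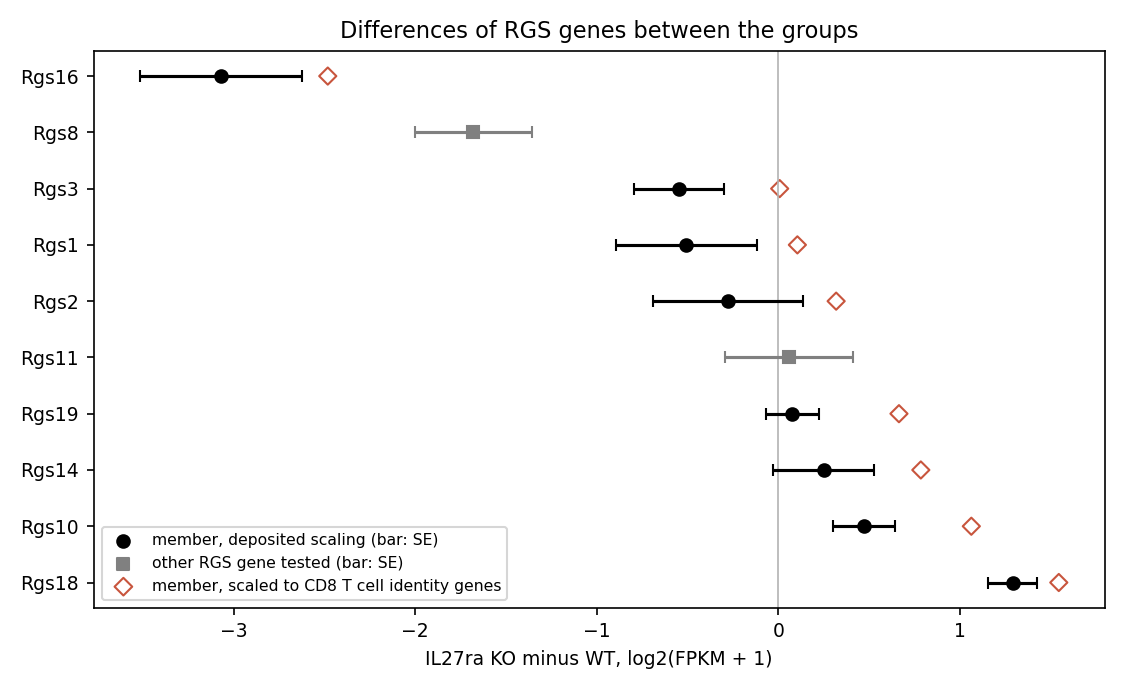
Difference between IL27ra KO and WT on the log2(FPKM + 1) scale for the 8 members and the 2 other RGS genes tested, with SE bars. Open diamonds give the members after scaling to the CD8 T cell genes. Rgs16 stays far below 0 in both, at -3.07 and -2.48, whereas Rgs1, Rgs2 and Rgs3 change sign.

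The makeup of the RGS transcripts differed between the groups mainly through Rgs16. Its share of the summed FPKM of the 20 RGS symbols was 21.1% ± 5.72 in WT (SD, n = 5) and 3.51% ± 1.00 in IL27ra KO (SD, n = 4). Rgs1 held 52.3% ± 7.46 and 56.9% ± 2.68, a difference smaller than the WT spread. The sum itself was 290, 571, 250, 235 and 525 FPKM in WT replicates 1 to 5 and 231, 188, 225 and 251 FPKM in IL27ra KO replicates 1 to 4, so the groups overlapped. With Rgs16 taken out it ran from 188 to 468 FPKM over WT libraries and from 182 to 245 FPKM over IL27ra KO libraries. The shares of Rgs10, 6.35% ± 2.88 and 12.6% ± 1.40, and of Rgs19, 5.53% ± 1.31 and 8.95% ± 0.53, had larger means in IL27ra KO.

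**Figure D3:**
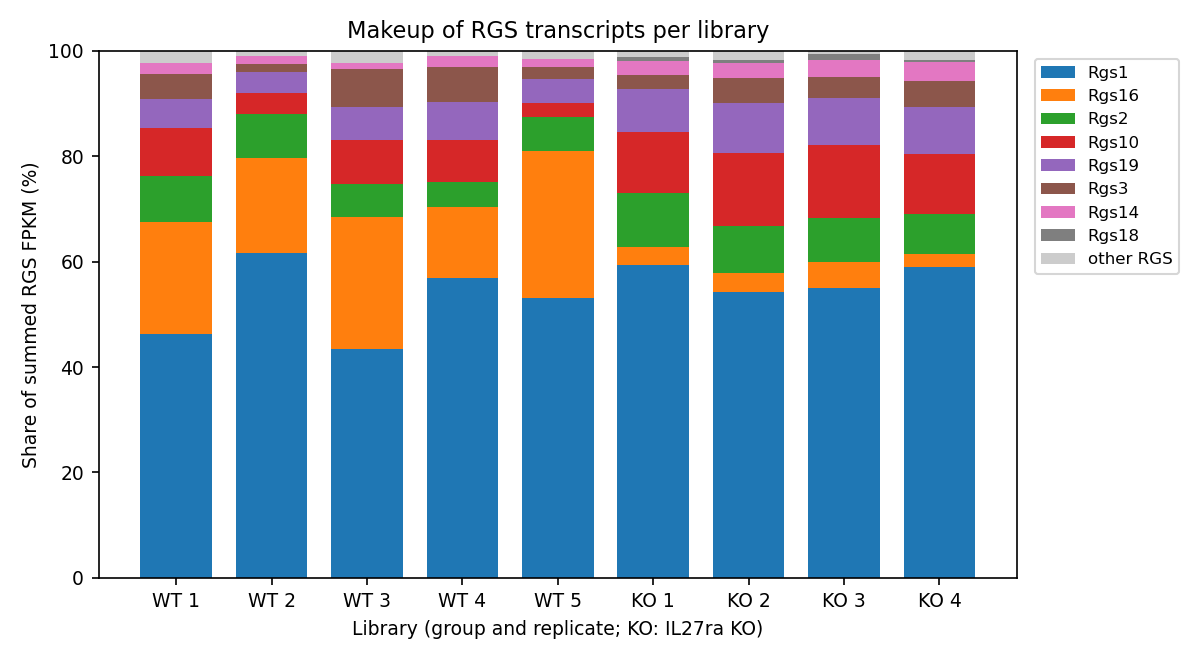
Share of each member in the summed FPKM of the 20 RGS symbols, as a stacked bar per library. Rgs1 takes 43.4% to 61.6% in all 9 libraries, and Rgs16 takes 13.4% to 27.9% in WT and 2.36% to 4.79% in IL27ra KO.

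The order of the levels changed at Rgs16. In WT it ran Rgs1, Rgs16, Rgs2, Rgs10, Rgs19, Rgs3, Rgs14 and Rgs18 by the mean. Rgs1 was above Rgs16, and Rgs16 above Rgs2, in 5 of 5 WT libraries, whereas Rgs2, Rgs10 and Rgs19 did not separate beyond their ranges. In IL27ra KO the order was Rgs1, Rgs10, Rgs19, Rgs2, Rgs3, Rgs16, Rgs14 and Rgs18. There Rgs1 lay above Rgs10, Rgs10 above Rgs19 and Rgs2 above Rgs3 beyond their ranges, whereas Rgs19 and Rgs2, and Rgs3, Rgs16 and Rgs14, overlapped. The WT libraries varied more for 6 of the 7 members with a mean of at least 1 FPKM, Rgs3 being the exception at 24.9% in WT and 28.8% in IL27ra KO. The coefficients of variation of Rgs1, Rgs2 and Rgs16 were 53.4%, 54.7% and 55.2% in WT and 15.5%, 14.6% and 27.5% in IL27ra KO, beside medians of 32.3% and 21.4% over all genes tested.

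The 3 most abundant R4 members stand in 2 places on chromosome 1 in the RefSeq order. Rgs2, Rgs13, Rgs1, Rgs21 and Rgs18 follow one another, and Rgs16 lies in the second place, next to Rgs8. Of the 5 in a row, Rgs1 and Rgs2 overlapped between the groups, Rgs18 did not, and Rgs13 was listed at 0 in 8 of 9 libraries. Of the 12 RGS symbols outside the members, Rgs8 and Rgs11 passed the level filter. Rgs11, an R7 regulator, averaged 2.01 ± 1.00 FPKM in WT libraries and 2.11 ± 1.08 FPKM in the others (SD, n = 5 and 4; limma, adjusted p = 0.957). Rgs6, Rgs7 and Rgs22 were listed at 0 in all 9 libraries, and Rgs4, Rgs5, Rgs9, Rgs12, Rgs13, Rgs17 and Rgs20 did not exceed 1.26 FPKM.

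The genes whose levels ran most like a member were found by Pearson correlation of log2(FPKM + 1) over the 9 libraries, among 5722 genes averaging 5 FPKM or more. The libraries of a group share their genotype, and the best of so many correlations over 9 points is high in any case, so the values are a description. For Rgs16 they were Lag3 (r = 0.982) and Havcr2 (0.974), inhibitory receptors of T cells, and Stat3 (0.972), a transcription factor downstream of cytokine receptors. Rgs8 ran most like Stat3 (0.988), Ubash3b (0.981) and Rgs16 (0.979). For Rgs1 the leading gene was Id2 (0.958), for Rgs2 Plac8 (0.971), for Rgs3 Akap13 (0.977), for Rgs10 Diablo (0.917), for Rgs14 Parp2 (0.978) and for Rgs19 Map2k2 (0.909).

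With the group means taken away, the neighbours of Rgs16 were others, Agpat4 (r = 0.948), Il1r2 (0.931) and Gsdmd (0.929). Rgs2 then ran most like Tnfrsf4 (0.989), which encodes the co-stimulatory receptor OX40, and Rgs1 most like Ten1 (0.979). Plac8 stayed among the 3 nearest to Rgs2 (0.971), Akap13 to Rgs3 (0.971), Cpne8 to Rgs10 (0.883) and Parp2 to Rgs14 (0.976).

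The partners of RGS proteins were examined in 7 lists by role. In the 5 lists without receptors, covering alpha subunits, beta and gamma subunits, receptor kinases and arrestins, other modulators of alpha subunits, and effectors, 0 of 55 tested genes were past the threshold (limma; 9 had an unadjusted p under 0.05, beside 1563 of the 10374 genes tested). Over all genes 4.24% were past it. Of the 55, 35 lay above 0 and 20 below, with a median log2 difference of 0.14, beside 0.02 for all genes tested. Some of the most abundant are given here. Gnai2, the main inhibitory alpha subunit of lymphocytes and a substrate of most RGS proteins, had 31.8, 119, 51.4, 40.5 and 37.4 FPKM in WT replicates 1 to 5 and 24.5, 25.8, 28.7 and 34.9 FPKM in IL27ra KO replicates 1 to 4 (log2 difference -0.79, SE 0.32; limma, adjusted p = 0.245). Gnas, the stimulatory alpha subunit, had means of 85.2 ± 30.6 and 86.7 ± 26.5 FPKM (SD, n = 5 and n = 4). The receptor kinase Adrbk1 had 29.5 ± 9.07 and 17.8 ± 6.96 FPKM (limma, adjusted p = 0.215). Rac2, a GTPase of leukocyte migration, had 129.6 ± 30.5 and 97.4 ± 46.5 FPKM (limma, adjusted p = 0.473).

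With the values as deposited, the calls among the partners were in the receptors. Of the 5 other lists, 1 to 3 genes passed with no filter, with scaling to the CD8 T cell genes, with quality weights, and with WT replicate 2 or WT replicates 2 and 5 left out. Of 14 tested chemokine receptors 3 rose (Ccr1, Ccr2 and Ccr4), 1 fell (Ccr8) and 10 did not pass, with a median log2 difference of 0.13. Ccr1 and Ccr4, with means of 0.984 and 0.236 FPKM in WT, reached the level filter through the IL27ra KO libraries alone. They thus had to be higher once tested. With no filter Ccr1 passed and Ccr4 did not (limma, adjusted p = 0.0245 and 0.0707). Of 22 tested receptors for lipids, purines and other ligands 4 rose, 1 fell and 17 did not pass, with a median of 0.07. Over all 7 lists this came to 7 higher and 2 lower of 91, beside 3.13% and 1.11% of all genes. Ccr2, which draws monocytes and T cells to its ligand, rose from 8.44 ± 4.44 to 37.9 ± 11.9 FPKM (SD, n = 5 and 4; limma test, adjusted p = 0.0020). C3ar1 and C5ar1, receptors for complement fragments on myeloid cells, rose by 3.14 and 2.50 log2 units, P2ry6, a nucleotide receptor, by 2.55 and Ltb4r1, a leukotriene receptor, by 2.17 (limma, highest adjusted p = 0.0072). These sizes depended on the pseudocount: from 5 to 0.1 they ran from 1.87 to 4.20 for C3ar1, 1.42 to 3.26 for C5ar1, 1.25 to 3.97 for P2ry6 and 1.08 to 3.35 for Ltb4r1. P2ry6, with a mean of 0.632 FPKM in WT, also reached the level filter through the IL27ra KO libraries alone. It too had to be higher once tested. With no filter all 4 of these receptors still passed. These receptors are made by macrophages, whose marker genes rose with them, a list that holds Ccr2 itself, and the part of macrophages in them was not tested.

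The receptors that fell are ones that T cells make. Gpr65, a proton-sensing receptor, had 15.9, 33.6, 20.5, 16.7 and 29.8 FPKM in WT replicates 1 to 5 and 6.63, 7.63, 7.51 and 8.31 FPKM in IL27ra KO replicates 1 to 4. Ccr8, a receptor of activated and regulatory T cells, averaged 7.55 ± 1.74 FPKM in WT libraries and 2.69 ± 0.52 FPKM in IL27ra KO libraries (SD, n = 5 and 4). Neither gene overlapped between the groups (log2 difference -1.45, SE 0.24, and -1.20, SE 0.21; limma, adjusted p = 0.0030 and 0.0045). Scaled to the CD8 T cell genes, both calls were lost (limma, adjusted p = 0.0777 and 0.134). Beside Ccr8, 2 of 4 tested genes of CD4 and regulatory T cells were lower, against 1.11% of all genes tested. The list summed to 66.0 to 119 FPKM across WT libraries and 16.6 to 30.5 FPKM across IL27ra KO libraries, most of it from Ctla4. The part of these T cells was not tested. Foxp3, which defines regulatory T cells, ranged from 0 to 5.53 FPKM across WT libraries and from 0.52 to 1.07 FPKM across IL27ra KO libraries. Cxcr6, a receptor of resident T cells, went from 86.2 ± 38.3 to 36.3 ± 20.7 FPKM and did not pass (limma, adjusted p = 0.0711), and Ccr7, a receptor for lymph node homing, had 91.0 ± 22.7 and 94.6 ± 26.8 FPKM. The Ccr4 call, at 0.236 ± 0.240 and 2.10 ± 1.20 FPKM (limma, adjusted p = 0.0425), was lost in 10 of the 17 alternative fits that tested it (limma, highest adjusted p = 0.109). Among these were the fits without WT replicate 1, 2, 4 or 5. Without IL27ra KO replicate 2, 3 or 4, Ccr4 fell below the level filter and was not tested.

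**Figure D4:**
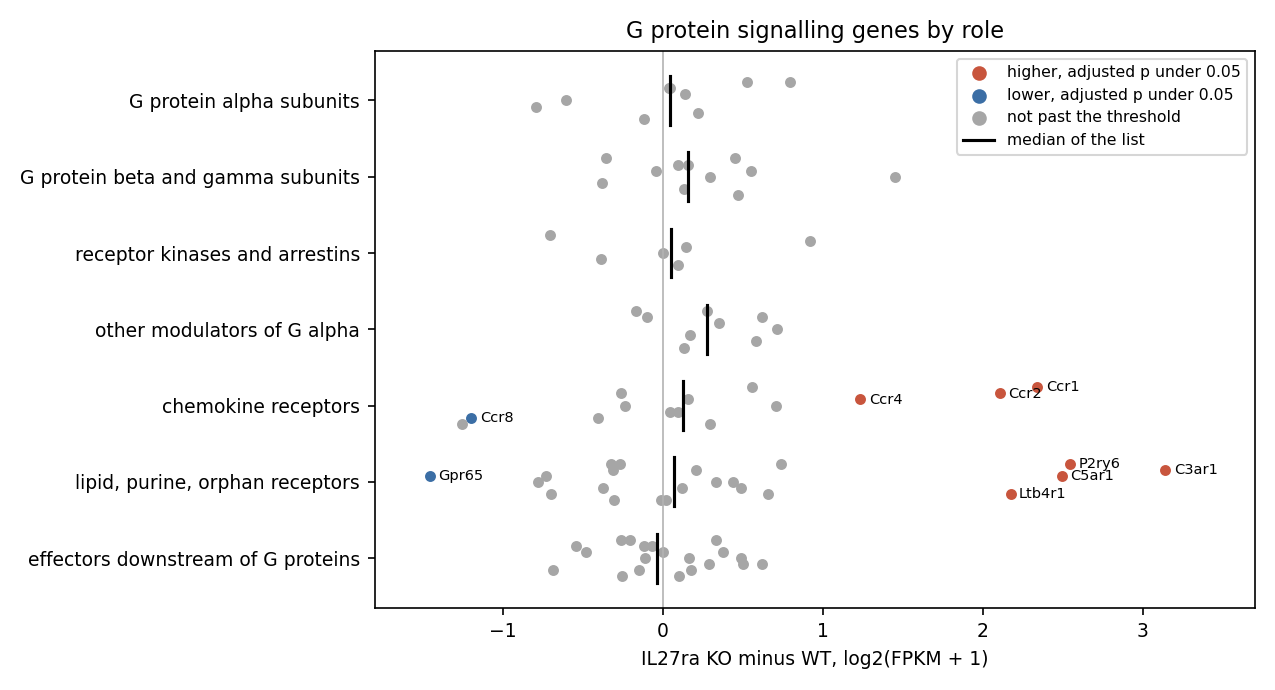
Difference between IL27ra KO and WT on the log2(FPKM + 1) scale for the 91 tested genes of 7 lists of G protein signalling, 1 point per gene and a line at the median of each list. Coloured and named points passed an adjusted p under 0.05 in limma: all 9 are receptors, 7 higher and 2 lower.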

How the data were processed

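RNA sequencing of 9 libraries of tumour CD8+ T cells was used. Per the labels, the authors deposited an FPKM per gene, estimated by RSEM and scaled by TMM, from an adapted SMART-Seq 2 protocol without molecular identifiers. The submitters' processing notes name TopHat, RSEM, DESeq and mm9, without versions or roles. RSEM divides fragments among genes that share sequence. Columns were matched to samples by genotype and replicate number, and 0 columns belonged to other samples.

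The values were taken to log2(FPKM + 1), and the 10374 genes averaging 1 FPKM or more were compared in 1 model with limma 3.58.1 in R 4.3.3 (eBayes, trended). P-values were adjusted by Benjamini-Hochberg and called under 0.05. SEs of RGS members come from the 9 libraries alone. Depth, on the TMM scale, was estimated from the spacing of low values with GENCODE M21 lengths: 65.4% to 72.1% lay within 0.1 of a whole multiple, against 20% if evenly spread. The Rgs18 fragments are such estimates.

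The members, gene lists and tests were chosen with earlier results of these data known. Named were the members, all other RGS symbols, Il27ra, and of the lists the passing genes and only some of the most abundant ones. The rule took from each list at most 4 passing genes by p and the 2 highest in level, and not all of the latter are given here. Ltb4r1 and the neighbour Npl were named after their values were seen. Alternatives were pseudocounts, filters, scalings, a robust fit, quality weights, a block for the replicate number, and each library left out; leaving out WT replicates 2 and 5 was added after the data had been seen.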

Additional observations from a re-analysis of the deposited data

Results flagged for a closer look

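Among 20 sets of values (9 tested RGS genes and Rgs18, each in WT and in IL27ra KO), 2 had a library far from the rest of its group, and chance gives about 1 in 20 for continuous values. In both sets every other library was listed at 0, so any value above 0 would have stood apart. Rgs8 in IL27ra KO was 0.1 FPKM in replicate 2 and listed at 0 in the other 3 libraries. Rgs18 in WT was 0.13 FPKM in replicate 5 and listed at 0 in the other 4. The Rgs18 value is worth about 1.06 fragments.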

How the results depend on the processing

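Of the members, Rgs16, Rgs10, Rgs14 and Rgs18 kept their direction in all 21 alternatives, with ranges of -3.36 to -2.48, 0.35 to 1.06, 0.06 to 0.78 and 0.38 to 3.75 log2 units. Rgs1 and Rgs2 changed sign on scaling to the CD8 T cell genes and with WT replicates 2 and 5 left out, and Rgs3 on that scaling. Rgs19 was 0.66 on that scaling and -7.85e-06, in effect 0, with equal medians. The cause was not tested. Genes changed, higher and lower numbered 440, 325 and 115, and went to 219, 155 and 64 with a filter at 5 FPKM (fewer genes tested), 763, 713 and 50 scaled to the CD8 T cell genes, and 974, 632 and 342 with weights for library quality. Leaving out 1 library at a time gave 227 to 639, 168 to 453 and 59 to 186. In all, 240, 266 and 227 changed without IL27ra KO replicates 1, 2 and 3, and the lower ones were 71 without WT replicate 5, but 186 if IL27ra KO replicate 4 was dropped. Among the partners, 7 higher became 4 with the filter at 5 FPKM, and 2 lower became 5 with quantile normalization, 0 scaled to the CD8 T cell genes and 8 with weights. Leaving out 1 library gave 6 to 7 higher and 2 to 5 lower, with 5 lower if WT replicate 2 was dropped and 4 if IL27ra KO replicate 4 was. With the replicate block, in which WT replicate 5 has no partner and adds nothing, 273 genes changed, 56 of them lower. Same-numbered libraries did not deviate together (r = -0.147 to 0.00268). Such a correlation over all genes cannot exclude a shared harvest or batch, and the labels do not say whether the numbers mark pairs. At 1740000 to 4030000 fragments on the TMM scale, levels near 1 FPKM rest on a few fragments.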
